A study of Mus musculus with 6 samples.

Results

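The miRNAs described here are 7 mature mouse miRNAs known from white blood cells: mmu-miR-142a-3p, mmu-miR-142a-5p, mmu-miR-223-3p, mmu-miR-150-5p, mmu-miR-155-5p, mmu-miR-146a-5p and mmu-miR-146b-5p, written without the species prefix from here on. They were chosen by name from the 1034 distinct mature miRNAs of the deposited table, and each had a row of its own. The samples were nephron progenitor cells, the cells of the kidney cortex from which nephrons form, of CD1 mice. One group was taken from embryos at stage E14.5 and the other on the day of birth (P0), with 3 samples each, no treatment and no altered allele named for either. Each sample was a pool of up to 24 kidneys from 1 litter. Cells released from the cortex by a 15-minute enzyme digestion were captured on magnetic beads with an antibody to Itga8, a surface integrin, so cells other than progenitors may have remained in the pool. The table holds no mRNA, so the progenitor label and the leukocyte label could not be checked against defining mRNAs such as Six2 or Ptprc.

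As background, a miRNA guides a silencing complex to messenger RNAs that pair with its seed, bases 2 to 8 from its 5′ end. The miR-142a hairpin is used across blood lineages, and both of its arms are found loaded. miR-223-3p is abundant in myeloid cells, above all granulocytes, and limits their number and activity. miR-150-5p is abundant in mature B and T lymphocytes, where it represses Myb. miR-155-5p rises in activated macrophages and lymphocytes, and miR-146a-5p and miR-146b-5p act against inflammatory signalling through Traf6 and Irak1. The last 3 are also made at some level outside blood cells.

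The sequences are shown because the 2 arms of miR-142a and the 2 miR-146 miRNAs are compared below. Mature sequences from RefSeq (build GRCm38.p6) matched 6 of the 7 members by name, all but miR-150-5p, and their positions equalled those of the table. Capitals mark the seed:
miR-142a-3p: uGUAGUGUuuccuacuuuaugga
miR-142a-5p: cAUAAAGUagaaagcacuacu
miR-223-3p: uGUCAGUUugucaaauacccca
miR-155-5p: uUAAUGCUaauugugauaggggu
miR-146a-5p: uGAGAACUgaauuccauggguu
miR-146b-5p: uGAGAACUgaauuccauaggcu
These 6 sequences carry 5 seeds. Only miR-146a-5p and miR-146b-5p share one, GAGAACU, and among the 1738 mature miRNAs of the RefSeq table no other name carries it. They differ at 2 bases, G18A and U21C, where the first letter is the base of miR-146a-5p, the number is the position from the 5′ end and the last letter is the base of miR-146b-5p. The division of reads between them therefore rests on the 3′ part of the read.

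In the Mir142 hairpin (chr11:87756864-87756927, plus strand, GRCm38.p6) both arms, in capitals, are carried by 1 precursor of 64 bases:
Mir142: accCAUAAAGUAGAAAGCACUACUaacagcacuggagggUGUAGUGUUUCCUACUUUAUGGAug
In GENCODE M21 the hairpin lies in an intron of the lincRNA Mir142hg, and the Mir142b hairpin is annotated on the opposite strand. miR-223-3p (chrX:96242884-96242905, plus strand) lies in an exon of F630028O10Rik, a transcript on the same strand whose annotated gene type is antisense. miR-155-5p (chr16:84714143-84714165, plus strand) lies in an exon of Mir155hg, its host transcript. miR-146b-5p (chr19:46342790-46342811, plus strand) lies in an intron of Mfsd13a. miR-146a-5p (chr11:43374435-43374456, minus strand) and miR-150-5p (chr7:45121762-45121783, plus strand) overlap no annotated gene but their own miRNA gene, Mir146 and Mir150.

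The deposited values are TPM, reads per base of the miRNA scaled to a library total of 1000000. The reads behind them, recovered from the steps of the values, numbered between 2649506 and 34934526 per library, and the 2 shallowest libraries were both from E14.5. P0 replicate 1 stood apart from its group: over 670 miRNAs its mean Pearson correlation was 0.948 with E14.5 and 0.908 with the rest of P0, so calls on the members that change without it are given beside the results. In TPM the median log2 difference, P0 over E14.5, over the 670 tested miRNAs was −1.20. After median-of-ratios scaling, which divides each library by the median ratio of its miRNAs to their geometric mean over the libraries, it was −0.18. Both scales are given, the second as rescaled TPM, since the direction of several members depends on the choice. In bulk samples fewer cells of a type and less RNA per cell cannot be told apart.

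All 7 members had reads in each of the 6 libraries, from 47 to 10866 reads per member and library, and all were tested. At E14.5 the order of the mean TPM was miR-142a-3p, miR-146a-5p, miR-155-5p, miR-146b-5p, miR-223-3p, miR-142a-5p and miR-150-5p. Neighbours in this order overlapped between libraries down to miR-223-3p, whereas miR-142a-5p lay below miR-223-3p and miR-150-5p below miR-142a-5p in each library range. At P0 the order was miR-142a-3p, miR-146b-5p, miR-223-3p, miR-146a-5p, miR-155-5p, miR-142a-5p and miR-150-5p, and only miR-150-5p was separated from its neighbour. miR-142a-3p ranked between 95 and 127 among the 1034 miRNAs of a library, and miR-150-5p between 329 and 464.

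**Figure D1:**
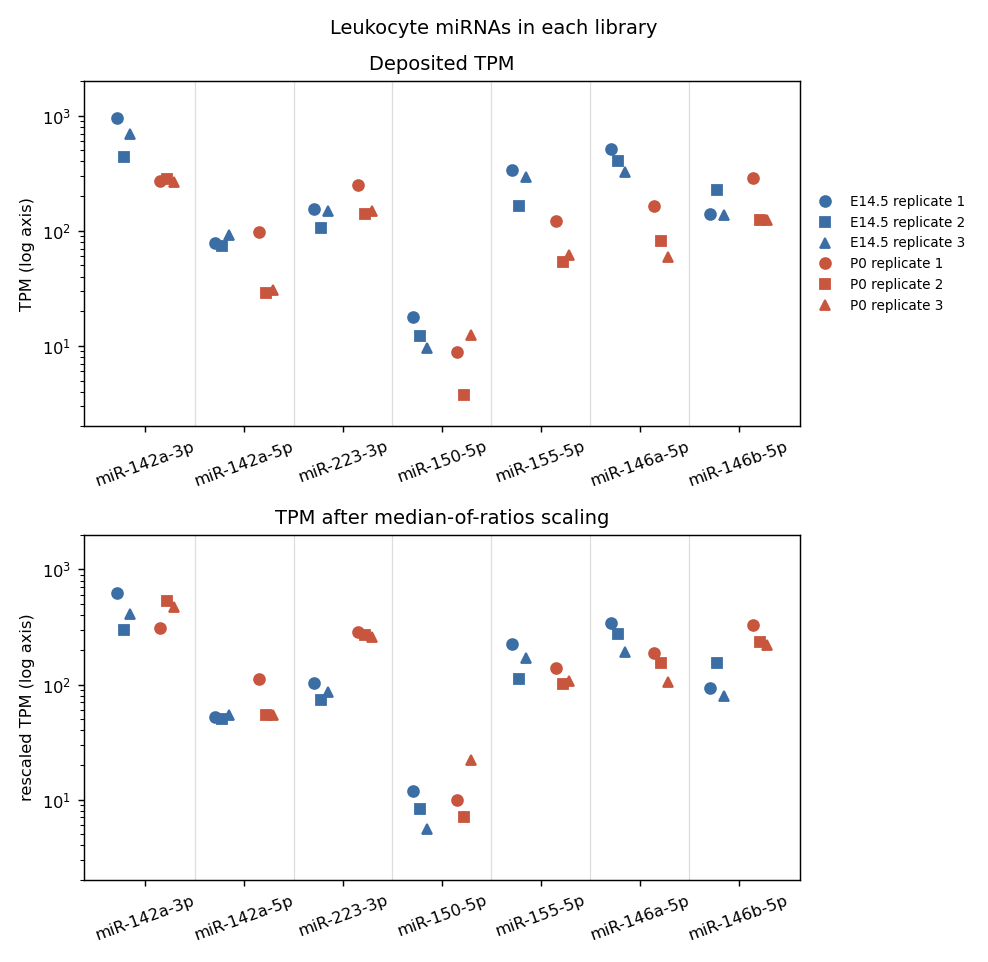
TPM (upper panel) and TPM after median-of-ratios scaling (lower panel) of each of the 7 leukocyte miRNAs, on log axes. Each point is 1 library, blue for E14.5 and red for P0. In TPM 3 members lie lower at P0 with no overlap, whereas after scaling 3 lie higher and 1 lower.

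Across the members, 2 of 7 were called lower at P0 in TPM (limma, adjusted p under 0.05) and the other 5 did not pass. Of all 670 tested miRNAs, 34.2% were called in either direction, 32.8% lower and 1.34% higher. The stages did not overlap in TPM for 3 of the 7, all of them lower at P0. Of all tested miRNAs, 49.6% did not overlap, 46.4% being lower and 3.13% higher. The median log2 fold change of the members was −0.86 in TPM, beside −1.20 for all tested. After scaling 1 of 7 was called, higher at P0, against 10.9% of all tested in either direction, 5.67% higher and 5.22% lower. The stages then did not overlap for 4 of 7, with 3 higher and 1 lower, against 35.4% of all tested, 15.8% higher and 19.6% lower. The median of the members was 0.40 after scaling, beside −0.18. Without P0 replicate 1, 4 of 7 were called in TPM, against 420 of the 689 miRNAs tested then. After scaling that fit called 3 of 7, against 332 of 689. The shares of members called were near those of all tested miRNAs and set nothing apart about the 7 as a group.

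The miR-142a arms come first, as the marker used across blood lineages. miR-142a-3p had 950, 440 and 697 TPM in the E14.5 libraries, replicates 1 to 3, and 273, 280 and 267 TPM in those of P0. Every P0 library was below every E14.5 library, and the P0 values lay within a far narrower range than those of E14.5. The means were 696 ± 255 and 273 ± 6.40 TPM (SD, n = 3), a log2 difference of −1.28 (SE 0.52, limma adjusted p = 0.0695), which did not pass the threshold. This change was close to the median of all miRNAs. The value was −1.28 without P0 replicate 1 and passed (limma adjusted p = 0.00989), in a fit that called 420 of 689 miRNAs. In rescaled TPM the values were 629, 300 and 407 at E14.5 and 312, 529 and 471 at P0. The stages overlapped on that scale, with a log2 difference of 0.01 (SE 0.46, limma adjusted p = 0.994), whose sign also turned when any of E14.5 replicates 2 and 3 or P0 replicates 2 and 3 was left out.

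miR-142a-5p, the other arm of the same hairpin, had 78.7, 73.2 and 92.7 TPM at E14.5 and 97.9, 28.7 and 30.8 TPM at P0. P0 replicate 1 was the highest of the 6 libraries, and the other P0 libraries were the lowest. The log2 difference was −0.86 (SE 0.62, limma adjusted p = 0.279). It was −1.42 without P0 replicate 1 and passed (limma adjusted p = 0.00764), in a fit that called 420 of 689 miRNAs. The rescaled E14.5 libraries lay at 52.1, 49.9 and 54.1 and the P0 libraries at 112, 54.2 and 54.3. All P0 values were the higher ones there, though for replicates 2 and 3 by very little, and the change of 0.40 did not pass (limma adjusted p = 0.587). It was 0.0096 when P0 replicate 1 was left out.

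The ratio of the arms does not depend on how libraries are scaled. miR-142a-5p amounted to 8.28%, 16.6% and 13.3% of miR-142a-3p at E14.5. At P0 it amounted to 35.8% in replicate 1 and to 10.3% and 11.5% in replicates 2 and 3. The 3p arm was the more abundant arm in every library, and P0 replicate 1 was the one library far from the rest. On log2(TPM + 1) the ratio differed between the stages by 0.42 (SE 0.64, exact two-sided permutation p = 0.7, adjusted over 6 ratios 0.7). Without P0 replicate 1 the difference was −0.14.

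miR-223-3p, the myeloid marker, had 156, 107 and 147 TPM at E14.5 and 249, 141 and 147 TPM at P0. Only P0 replicate 1 lay above the E14.5 range, and the other P0 libraries fell within it. The means were 137 ± 26.2 and 179 ± 60.4 TPM (SD, n = 3), a log2 difference of 0.36 (SE 0.54, limma adjusted p = 0.598). This was 0.10 when P0 replicate 1 was left out. Of the 670 tested miRNAs, 86.4% had a lower log2 fold change. In rescaled TPM the libraries lay at 103, 72.6 and 86.0 at E14.5 and at 284, 267 and 260 at P0. Every P0 library was above every E14.5 library on that scale, where 15.8% of all tested miRNAs were higher without overlap. The rescaled log2 difference was 1.63 (SE 0.42, limma adjusted p = 0.0401), a call that 5.67% of all tested miRNAs reached in that direction. It also passed with upper-quartile scaling (limma adjusted p = 0.0408). With the replicate number added as a block to the rescaled fit it did not pass (limma adjusted p = 0.0506). Without P0 replicate 1 the rescaled change was 1.55 with a limma adjusted p of 0.00464. The rescaled call was lost when any other library was left out, with limma adjusted p-values of 0.157, 0.0814 and 0.197 without E14.5 replicates 1, 2 and 3 and of 0.145 and 0.115 without P0 replicates 2 and 3. Its change lay between 1.53 and 1.74 in these fits. The authors' deposited values rest on the same 6 libraries and their sign was read from rescaled values, so they add no separate evidence. In the authors' deposited table miR-223-3p had a log2 difference of 1.74, standard error 0.59, and an adjusted p of 0.0289. It was the only member with an adjusted p under 0.05 in the authors' deposited table, against 10.4% of all 1034 miRNAs there, 5.13% higher and 5.32% lower.

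miR-150-5p, the marker of mature lymphocytes, was the least abundant member. It had 17.8, 12.2 and 9.59 TPM at E14.5 and 8.77, 3.74 and 12.5 TPM at P0. It rested on 47 and 49 reads in E14.5 replicates 1 and 3, so the 95% exact Poisson intervals of those libraries were 13.1 to 23.7 and 7.10 to 12.7 TPM. The stages overlapped in TPM, with a log2 difference of −0.69 (SE 0.61, limma adjusted p = 0.369), and in rescaled TPM, with 0.46 (SE 0.60, limma adjusted p = 0.615). Its direction thus depended on the scaling. The lowest and highest values with 1 library left out were −1.02 (P0 replicate 3) and −0.26 (P0 replicate 2) in TPM and 0.05 (P0 replicate 3) and 0.85 (P0 replicate 2) rescaled. The ratio of miR-223-3p to miR-150-5p, a comparison of the myeloid with the lymphoid marker chosen after the values were seen, was 8.74, 8.73 and 15.4 at E14.5 and 28.4, 37.8 and 11.8 at P0. Replicate 3 of P0 lay within the E14.5 range, and the other P0 libraries lay above it.

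miR-155-5p, which is induced in activated leukocytes, had 338, 165 and 293 TPM at E14.5 and 123, 53.1 and 61.2 TPM at P0. Every P0 library was below every E14.5 library. It fell by 1.77 on the log2 scale (SE 0.58, limma adjusted p = 0.0349), from 265 ± 89.8 to 79.0 ± 38.2 TPM (SD, n = 3). The call held without E14.5 replicate 2 (limma adjusted p = 0.0431) and without P0 replicate 1 (0.000724). It was lost without E14.5 replicate 1 (limma adjusted p = 0.137), E14.5 replicate 3 (0.138), P0 replicate 2 (0.149) or P0 replicate 3 (0.115). In rescaled TPM the libraries lay at 224, 112 and 171 at E14.5 and at 140, 100.4 and 108 at P0. The stages overlapped there, with a change of −0.50 (SE 0.46, limma adjusted p = 0.465).

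miR-146a-5p, a brake on inflammatory signalling, had 514, 402 and 325 TPM at E14.5 and 165, 81.4 and 59.1 TPM at P0. Every P0 library was below every E14.5 library, and P0 replicate 1 was the nearest to them. The fall was −2.12 in log2 units (SE 0.57, limma adjusted p = 0.0148), from 414 ± 95.1 to 102 ± 55.7 TPM (SD, n = 3). It was the largest fall among the members in TPM, and 23.9% of the tested miRNAs had a lower log2 fold change. The call held without E14.5 replicate 2 (limma adjusted p = 0.0449) and without P0 replicate 1 (0.000112). It was lost without E14.5 replicate 1 (limma adjusted p = 0.0685), E14.5 replicate 3 (0.0592), P0 replicate 2 (0.0664) or P0 replicate 3 (0.0776). In rescaled TPM the libraries lay at 340, 274 and 190 at E14.5 and at 188, 154 and 104 at P0. P0 was lower without overlap there as well, though E14.5 replicate 3 and P0 replicate 1 nearly met, and the change of −0.85 did not pass (SE 0.46, limma adjusted p = 0.215). The rescaled change was −1.09 without P0 replicate 1 and passed (limma adjusted p = 0.0365), in a fit that called 332 of 689 miRNAs.

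miR-146b-5p, which has the same seed, had 141, 225 and 137 TPM at E14.5 and 290, 125 and 125 TPM at P0. P0 replicate 1 was the highest library and the other P0 libraries were the lowest, with a log2 difference of 0.02 (SE 0.57, limma adjusted p = 0.977). Its sign turned without E14.5 replicate 1 (−0.08), E14.5 replicate 3 (−0.11) or P0 replicate 1 (−0.38) and with limma-voom on the recovered reads (−0.01). Rescaled, the libraries lay at 93.4, 153 and 79.7 at E14.5 and at 330, 236 and 221 at P0. Each P0 library was above each E14.5 library on that scale, and the change of 1.30 did not pass (SE 0.46, limma adjusted p = 0.0848). It was 1.07 without P0 replicate 1 and passed (limma adjusted p = 0.0392), in a fit that called 332 of 689 miRNAs.

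**Figure D2:**
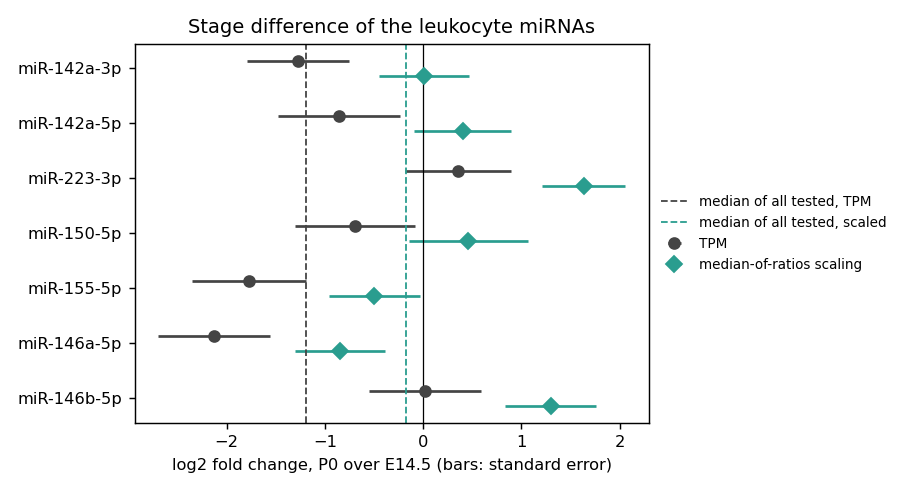
Log2 fold change, P0 over E14.5, of each leukocyte miRNA in TPM (circles) and after median-of-ratios scaling (diamonds), with limma standard errors as bars and the medians of all 670 tested miRNAs as dashed lines. miR-155-5p and miR-146a-5p lie lowest on both scales and miR-223-3p highest.

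Which of the miR-146 miRNAs was the more abundant differed between the stages. The ratio of miR-146b-5p to miR-146a-5p on TPM + 1 was 0.276, 0.559 and 0.422 at E14.5 against 1.75, 1.53 and 2.10 at P0. miR-146a-5p was thus the higher in each E14.5 library and miR-146b-5p in each P0 library. The mean log2 ratio was −1.31 ± 0.51 for E14.5 against 0.83 ± 0.23 for P0 (SD, n = 3), a difference of 2.14 (SE 0.32) or 4.42-fold. By exact permutation, two-sided, p was 0.1, the smallest p that 3 against 3 libraries allow, and 0.3 after adjustment over the 6 ratios tested, so this design could not reach the threshold. With any 1 library left out, the difference lay between 1.87 and 2.38. Since the miRNAs differ at 2 bases near the 3′ end, any reads counted under the wrong name would move this ratio, and their number was not tested.

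The ratio of miR-223-3p to miR-142a-3p, a myeloid marker against one used across blood lineages, was 0.165, 0.244 and 0.213 at E14.5 and 0.911, 0.507 and 0.553 at P0. Each P0 library lay above each E14.5 library, and P0 replicate 1 was the highest. The log2 ratio had means of −2.29 ± 0.29 and −0.66 ± 0.46 (SD, n = 3), a difference of 1.63 (SE 0.31) or 3.10-fold, with an exact permutation p of 0.1, the smallest possible, and 0.3 after adjustment. Without P0 replicate 1 the difference was 1.37, the lowest among the fits that left out 1 library, and the highest was 1.80. Of the 6 ratios, this one and that of the miR-146 miRNAs did not overlap between the stages. The share without overlap among ratios of all tested miRNAs was not computed. For single miRNAs it was 49.6% in TPM and 35.4% after scaling.

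The other ratios to miR-142a-3p overlapped between the stages. For miR-150-5p the difference was 0.58 (SE 0.55, exact permutation p = 0.3, adjusted 0.45). For miR-155-5p it was −0.49 (SE 0.38, exact permutation p = 0.4, adjusted 0.48). For miR-146a-5p it was −0.85 (SE 0.52, exact permutation p = 0.3, adjusted 0.45). For both miR-155-5p and miR-146a-5p, P0 replicates 2 and 3 lay below all E14.5 libraries, and P0 replicate 1 did not. Leaving out P0 replicate 1 gave −0.86 for miR-155-5p and −1.26 for miR-146a-5p. The values nearest 0 were −0.24 for miR-155-5p without P0 replicate 2 and −0.54 for miR-146a-5p without P0 replicate 3. For miR-150-5p the difference was 0.24 without P0 replicate 3 and 1.03 without P0 replicate 2.

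**Figure D3:**
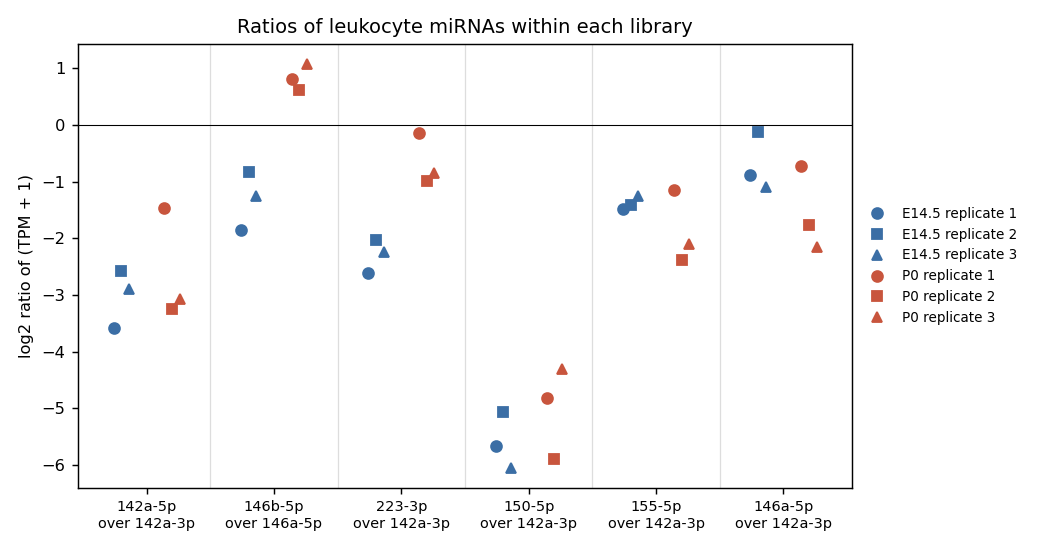
Log2 ratio of pairs of leukocyte miRNAs within each library, from TPM + 1, with names given without the miR- prefix. Blue points are E14.5 and red points P0. The ratios of miR-146b-5p to miR-146a-5p and of miR-223-3p to miR-142a-3p lie higher in all P0 libraries, and the other 4 overlap.

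As shares of the summed TPM of the 7 miRNAs, miR-223-3p made up 7.75% ± 0.82 of it at E14.5 against 20.5% ± 0.59 at P0 (SD, n = 3), and miR-146b-5p 10.1% ± 4.99 and 19.8% ± 3.68. miR-146a-5p made up 23.6% ± 4.57 and 11.2% ± 2.64, and miR-155-5p 14.7% ± 2.87 and 8.78% ± 1.37. miR-142a-3p was the largest share on average at both stages, at 38.4% ± 6.58 and 33.3% ± 9.24. Shares of 1 sum depend on each other, so these values describe the make-up and were not tested.

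**Figure D4:**
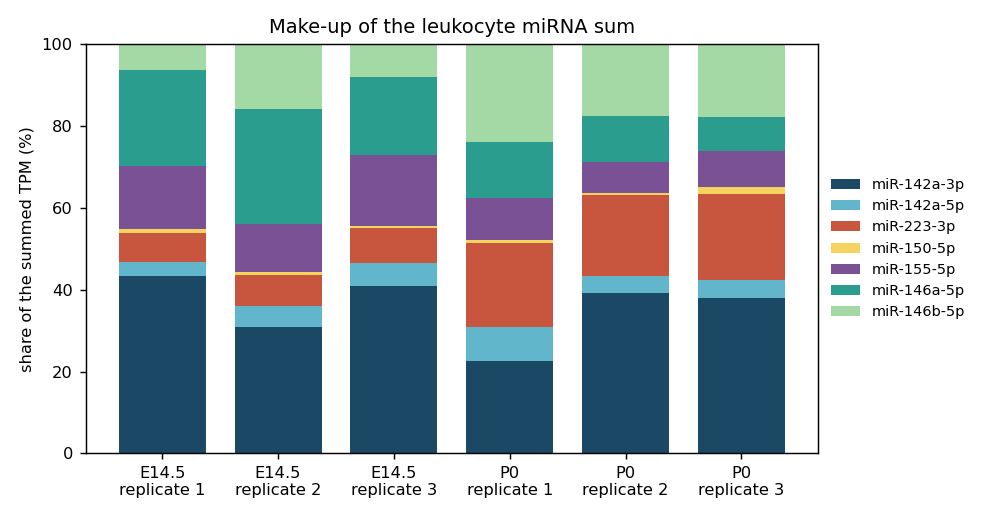
Share of each leukocyte miRNA in the summed TPM of the 7, for each library. The miR-223-3p segment is wider in the 3 P0 bars (mean 20.5%) than in the 3 E14.5 bars (mean 7.75%), and the miR-146a-5p segment is narrower.

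The summed TPM of the 7 miRNAs was 2196, 1424 and 1701 at E14.5 against 1206, 713 and 703 at P0, at most 0.220% of a library. Each P0 sum was below each E14.5 sum. After scaling the sums were 1453, 970 and 993 at E14.5 and 1375, 1348 and 1240 at P0, so the stages overlapped. The difference of the mean log2 sums was −1.05 in TPM and 0.24 after scaling, and its direction thus depended on the scaling.

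Sums of miRNAs known from other cell types are given beside it. The erythroid sum (5 miRNAs, among them miR-451a and both arms of miR-144) ranged from 242 to 417 TPM at E14.5 and from 128 to 194 TPM at P0. The endothelial sum (both arms of miR-126a) ranged from 26608 to 44921 TPM and from 5634 to 8158 TPM. The stromal sum (9 miRNAs of the miR-199, miR-214, miR-143 and miR-145a hairpins) ranged from 125247 to 149557 TPM and from 57122 to 73624 TPM. The epithelial sum (5 miRNAs of the miR-200 family) ranged from 4122 to 23183 TPM and from 500.2 to 1542 TPM. Of the 21 miRNAs in these lists, miR-486a-3p was the one without reads in some library, in 2 of the 6. In TPM the log2 difference of the leukocyte sum, −1.05, was like those of the erythroid (−1.02) and stromal (−1.06) sums, while those of the endothelial (−2.17) and epithelial (−3.67) sums were further below 0. After scaling it was 0.24 for the leukocyte, 0.27 for the erythroid and 0.23 for the stromal sum, so these 3 turned in sign, and −0.89 for the endothelial and −2.39 for the epithelial sum. The part of such other cells in the values of the leukocyte miRNAs was not tested.

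Set against these sums within a library, the leukocyte sum amounted to 4.89%, 5.35% and 5.93% of the endothelial sum at E14.5 and to 14.8%, 12.7% and 8.66% at P0. It amounted to 9.47%, 34.6% and 11.6% of the epithelial sum at E14.5 and to 78.2%, 143% and 80.6% at P0. Both ratios were higher in each P0 library than in each E14.5 library, in sums whose members were chosen with earlier results known. Against the stromal sum the leukocyte sum amounted to 1.64%, 1.14% and 1.14% at E14.5 and 1.81%, 1.25% and 0.955% at P0, and the stages overlapped. Against the erythroid sum it amounted to 526%, 588% and 438% at E14.5 and 945%, 371% and 363% at P0, with P0 replicate 1 highest and the other P0 libraries lowest.

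**Figure D5:**
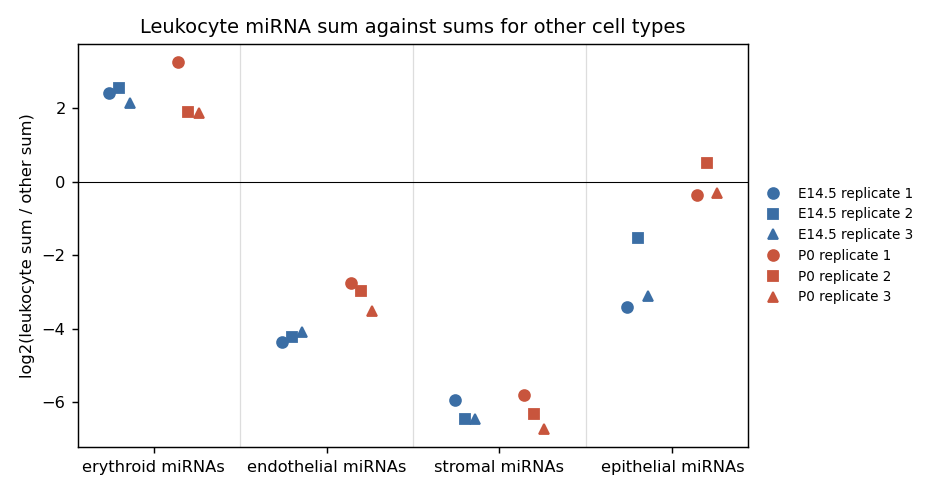
Log2 ratio of the leukocyte miRNA sum to the summed TPM of erythroid, endothelial, stromal and epithelial miRNAs within each library. Blue points are E14.5 and red points P0. The P0 libraries lie higher against the endothelial and epithelial sums, and the stages overlap against the erythroid and stromal sums.

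A second list held 11 miRNAs, the other arms of the members' hairpins and other miRNAs known from leukocytes. Of these, 9 had a row under their listed name, and the other 2, miR-146a-3p and miR-142b, had none. Among the 9, 3 reached a mean of 1 TPM and were tested. None of the 3 passed in TPM: miR-342-3p had a limma adjusted p of 0.249, miR-342-5p of 0.330 and miR-223-5p of 0.316. At an unadjusted p under 0.05 there was likewise none, in limma and in limma-voom. With all libraries, miR-342-3p was the 1 of the 3 called after scaling. Of all 670 tested miRNAs, 34.2% were called in TPM and 10.9% after scaling, 5.67% being higher at P0. With 3 tested, these counts set nothing apart about the list.

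miR-342-3p and miR-342-5p, the arms of a hairpin in an intron of Evl (chromosome 12, plus strand) that is active in lymphoid and myeloid cells, were the abundant members of the second list. miR-342-3p had 1190, 2588 and 1366 TPM at E14.5 and 2509, 2963 and 2527 TPM at P0, a log2 difference of 0.72 (SE 0.49). E14.5 replicate 2 lay among the P0 libraries, and the other E14.5 libraries lay below them. Rescaled, they lay at 787, 1762 and 797 at E14.5 and at 2862, 5603 and 4458 at P0. On that scale it rose by 2.00 (SE 0.48, limma adjusted p = 0.0333). The rescaled call was kept without P0 replicate 1 (limma adjusted p = 0.00241). It was lost without E14.5 replicates 1, 2 or 3 (limma adjusted p of 0.172, 0.0518 and 0.173) or P0 replicates 2 or 3 (0.145 and 0.0982). From the same libraries, the authors' deposited table gave miR-342-3p a log2 fold change of 1.62 with an adjusted p of 0.0495. miR-342-5p had 238, 179 and 276 TPM at E14.5 and 91.5, 192 and 164 TPM at P0, a log2 difference of −0.67 in TPM (−0.36 without P0 replicate 1) but 0.61 after scaling (limma adjusted p = 0.445), a direction that turned with the scaling. The rescaled change was 1.10 without P0 replicate 1 and passed (limma adjusted p = 0.0184), in a fit that called 332 of 689 miRNAs.

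Those other arms of the members' hairpins that had a row were scarce. miR-223-5p had at most 4.34 TPM and 0 reads in P0 replicate 3, where 3 reads would have been 0.133 TPM. miR-155-3p had at most 1.99 TPM, miR-146b-3p at most 1.91 TPM and miR-150-3p 14 reads in E14.5 replicate 2 and 0 elsewhere. miR-511-3p and miR-511-5p, from an intron of a macrophage receptor gene, had at most 0.978 and 1.61 TPM, and miR-147-3p, which macrophages make on stimulation, at most 0.849 TPM. Except for miR-223-5p, these miRNAs did not reach the mean needed for the test.

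The miRNAs whose profile over the 6 libraries was most like that of each member were sought among the 432 miRNAs averaging 10 TPM or more, by Pearson correlation of log2(TPM + 1). These correlations are a description. The points share their libraries, the depth of each and the general fall at P0, and the 3 highest of many are given. miR-142a-3p was most like miR-32-5p (r = 0.983), miR-30c-2-3p (0.981) and miR-582-5p (0.976). miR-142a-5p was most like let-7i-3p (r = 0.990), miR-425-3p (0.990) and miR-135a-5p (0.983). miR-223-3p was most like miR-101a-3p (r = 0.967), miR-140-5p (0.812) and miR-24-2-5p (0.739). miR-150-5p was most like miR-122-5p (r = 0.924), miR-143-3p (0.901) and miR-28c (0.868). For miR-155-5p the closest were miR-455-5p, miR-200b-3p and let-7f-1-3p (r of 0.998 each). For miR-146a-5p they were miR-98-5p (r = 0.988), miR-183-3p (0.986) and miR-322-3p (0.984). For miR-146b-5p they were miR-532-5p (r = 0.993), miR-361-3p (0.987) and miR-191-5p (0.982). Likeness depended on the scale for several of these miRNAs. After scaling the correlation with miR-142a-3p was 0.552 for miR-32-5p, 0.895 for miR-30c-2-3p and 0.315 for miR-582-5p. With miR-223-3p it was 0.979 for miR-101a-3p, 0.989 for miR-140-5p and 0.379 for miR-24-2-5p, and that of miR-28c with miR-150-5p was 0.499. Each of the other 14 lay between 0.727 and 0.988. No member was among the 3 closest of another member. In TPM the correlation between the miR-142a arms was 0.559, that between miR-155-5p and miR-146a-5p 0.934, and that between miR-146a-5p and miR-146b-5p 0.288. After scaling these were −0.469, 0.648 and −0.529.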

How the data were processed

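Per the labels' protocols, total RNA went into single-end QIAseq small RNA libraries. The authors deposited 1 table of 1104 rows with TPM per library, a baseMean signal, and a log2 fold change, a test statistic (score) and p-values per row. The submitters' processing notes name featureCounts, DESeq2 1.26.0 and build mm10. The aligner and the treatment of molecular tags are not given in the sources used here. For names with several rows the row with most reads was used. Every TPM value times end minus start was a whole multiple of 1 step per library (tolerance 1e-06), which gave whole reads. Depth is that of the report, and intervals and floors (3 reads) cover counting error only.

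TPM is not a count, so limma 3.58.1 (R 4.3.3) with a trend was fitted to log2(TPM + 1) where a miRNA averaged 1 TPM or more, with stage as the only term and Benjamini-Hochberg adjustment over all tested. Fold changes on this scale understate low miRNAs. The code of the fit was run on simulated libraries with nearly fixed shares and no outlying library, which does not check the calls made here. Size factors came from 546 miRNAs. No source states the direction of the authors' log2 values, and they were read as P0 over E14.5 because they followed the rescaled per-library values. Ratios had exact permutation tests (scipy 1.17.1). All 7 members are named, with the second-list miRNAs of at least 10 TPM in full. The members and lists were chosen with earlier results of these data known. The labels do not tell batches. Replicates were separate litters. No label says that the replicate numbers pair the samples, so the main fit had no such term. Alternatives were scaling, pseudocount, filter, summed rows, limma-voom, replicate block and leaving out each library.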

Additional observations from a re-analysis of the deposited data

How the results depend on the processing

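In TPM 229 of 670 miRNAs were called, 9 higher and 220 lower at P0. Median-of-ratios scaling gave 73 (38 higher, 35 lower) and upper-quartile scaling 58 (28 higher, 30 lower). Leaving out 1 library gave between 72 of 665 (without E14.5 replicate 3) and 420 of 689 (without P0 replicate 1). After median-of-ratios scaling, leaving out 1 library gave 332 calls of 689 without P0 replicate 1 and 0 to 7 calls otherwise. Of the 7 leukocyte miRNAs 2 were called in TPM and 1 with either scaling. Leaving out 1 library gave 0 to 4 in TPM and 0 to 3 after median-of-ratios scaling, a setting chosen after seeing the data. Where limma called 0 of 7, between 1 and 2 had an unadjusted p under 0.05, and limma-voom with all libraries called 2. The cause was not tested.

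With median-of-ratios and upper-quartile scaling, in that order, the log2 fold change was 0.0064 and 0.022 for miR-142a-3p, 0.40 and 0.42 for miR-142a-5p, 0.46 and 0.48 for miR-150-5p, 1.63 and 1.65 for miR-223-3p, −0.50 and −0.48 for miR-155-5p, −0.85 and −0.83 for miR-146a-5p, and 0.61 and 0.62 for miR-342-5p. The log2 difference of the summed TPM was 0.24 and 0.25. For miR-146b-5p limma-voom gave −0.015. Leaving out 1 library gave −1.57 to −1.02 for miR-142a-3p (after median-of-ratios scaling −0.23 to 0.27, with −0.052, −0.090 and −0.043 without E14.5 replicate 3, P0 replicate 2 and P0 replicate 3), −1.42 to −0.55 for miR-142a-5p, −2.13 to −1.54 for miR-155-5p, −2.54 to −1.80 for miR-146a-5p and −0.38 to 0.25 for miR-146b-5p. For the log2 ratio of the miR-142a arms it gave −0.14 to 0.74.

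Samples with the same number deviated from their stage mean with correlations of 0.193, 0.183 and 0.042 for replicates 1, 2 and 3. A fit with the number as a replicate block called 247 miRNAs in TPM, and 56 with median-of-ratios scaling. The block with that scaling called 0 of the 7 members (2 at an unadjusted p under 0.05), and miR-223-3p then had a limma adjusted p of 0.0506. Of 6 samples 5 correlated best with their own number and P0 replicate 3 did not, which is a hint from the data and not from the design. As the deposited unit is TPM, limma-voom was the only fit made on the recovered reads, and no quasi-likelihood count test was run.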
